A study of Mus musculus with 13 samples.

Results

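Clock output transcription factors and targets were examined in liver RNAseq data of alcohol-fed mice. They are 9 named genes, Dbp, Tef, Hlf, Nfil3, Ciart, Bhlhe40, Bhlhe41, Usp2 and Tsc22d3, found by symbol among the 53392 genes listed. All 9 had enough counts to be among the 14317 genes tested. The 13 livers came from female littermates aged 8 to 14 weeks that received 28% of calories as ethanol (Etoh) for 4 weeks in a Lieber-DeCarli diet. Every mouse was homozygous for Albumin-Cre and for Rosa26-loxP-stop-loxP-rtTA, so rtTA, the activator that needs doxycycline (Dox), is made in hepatocytes. ASAH+ mice also carried TRE-ASAH1, which rtTA with Dox at 200 mg/l switches on, and ASAH− mice lacked it. The groups were ASAH− Etoh-Dox (n = 4), ASAH+ Etoh-Dox (n = 5) and ASAH+ Etoh without Dox (n = 4), and a replicate is a separate mouse. The design description of the series gives 4 mice per group, whereas ASAH+ Etoh-Dox has 5 samples, and all 13 samples were used. No group in these data lacked Etoh. Dox treatment of ASAH+ mice was taken from the descriptions and induction labels, and the titles of these samples state the reverse. The hour at which each liver was taken is not given in the sources used here. The estimated counts per mouse totalled 17819486 to 35358711, with a median of 24454043. Values are CPM, estimated counts divided by the library total after its adjustment for composition (TMM).

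Cells keep daily time with a loop in which CLOCK and BMAL1 (gene Arntl) activate E-box genes, among them Per and Cry genes whose proteins then repress them. The loop reaches liver metabolism through output factors. Dbp, Tef and Hlf encode activators of the PAR bZIP family (basic leucine zipper proteins with a domain rich in proline and acidic residues) that bind D-box elements, and Nfil3 encodes a repressor of the same elements. Ciart, Bhlhe40 and Bhlhe41 encode repressors that act back on CLOCK and BMAL1. Usp2 encodes a deubiquitinase under clock control, and Tsc22d3 encodes GILZ, a leucine zipper protein induced by glucocorticoids.

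Promoter sequences are shown for 3 members, Ciart with the most E-boxes, Tef, whose RNA was closest to that of Dbp, and Nfil3, whose RNA ran opposite to it. RefSeq windows from 250 bases before to 50 bases after a gene start (GRCm38.p6) matched 8 of 9 genes, all but Bhlhe40. Both strands were searched for the E-box CACGTG, the E'-box CACGTT, the D-box TTATGTAA, the palindromic D-box TTACGTAA, the ROR element core TAGGTCA and the cAMP response element TGACGTCA. In the members' windows no matches of different motifs overlapped. The motifs occur in 7.15%, 4.68%, 0.938%, 0.119%, 2.61% and 1.79%, in that order, of all 32851 windows. Of the genes with a window, 3 of 8 members held the E-box. So did 2 of 11 core clock, 1 of 5 other clock-controlled, 1 of 7 PAR bZIP target and 3 of 10 glucocorticoid-responsive genes. The percentages above are per window, and a gene can have more than 1. The Ciart window (chr3:95882179-95882478, minus strand) held the E-box 3 times, with first bases 116, 58 and 44 bases before the start, marked in capitals.
Ciart: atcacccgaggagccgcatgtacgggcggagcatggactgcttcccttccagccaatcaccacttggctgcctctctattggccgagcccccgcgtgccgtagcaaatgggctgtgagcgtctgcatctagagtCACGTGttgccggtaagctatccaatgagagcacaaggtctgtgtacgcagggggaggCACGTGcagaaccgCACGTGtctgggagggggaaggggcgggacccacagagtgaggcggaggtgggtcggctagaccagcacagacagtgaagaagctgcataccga
The windows of Tef (chr15:81802423-81802722 and chr15:81811164-81811463, plus strand) each held 1 E-box, 127 and 138 bases before their starts, also in capitals.
Tef, upstream start: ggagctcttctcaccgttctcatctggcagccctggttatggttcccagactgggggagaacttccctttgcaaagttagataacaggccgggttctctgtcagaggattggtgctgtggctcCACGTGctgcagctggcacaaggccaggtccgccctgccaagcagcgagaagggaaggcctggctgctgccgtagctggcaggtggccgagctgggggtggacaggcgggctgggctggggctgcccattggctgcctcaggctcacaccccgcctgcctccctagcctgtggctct
Tef, downstream start: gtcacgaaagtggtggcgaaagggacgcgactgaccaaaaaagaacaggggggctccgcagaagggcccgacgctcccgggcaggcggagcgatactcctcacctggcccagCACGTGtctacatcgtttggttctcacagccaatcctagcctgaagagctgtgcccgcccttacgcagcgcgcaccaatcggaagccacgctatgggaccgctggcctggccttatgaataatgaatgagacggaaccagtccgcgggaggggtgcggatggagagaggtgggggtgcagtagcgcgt
Bhlhe41 held 1 E-box 153 bases before its start (chr6:145865371-145865670, minus strand). The Nfil3 window (chr13:52980990-52981289, minus strand) held the ROR element core 12 bases before the start on the opposite strand, so the capitals show its reverse complement.
Nfil3: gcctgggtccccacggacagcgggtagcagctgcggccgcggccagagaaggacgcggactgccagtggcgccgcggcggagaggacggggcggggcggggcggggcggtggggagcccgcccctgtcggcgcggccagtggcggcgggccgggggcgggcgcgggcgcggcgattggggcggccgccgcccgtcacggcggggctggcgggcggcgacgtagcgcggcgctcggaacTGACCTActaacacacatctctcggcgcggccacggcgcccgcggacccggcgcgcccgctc
Hlf held a cAMP response element 9 bases before its start (chr11:90390868-90391167, minus strand). The windows of Dbp, Usp2 and Tsc22d3 held none of the 6 motifs, which says only that these letters are absent there. No member window held a D-box of either form. Among the 11 of 15 core clock genes with a window, Per3 alone held the D-box (chr4:151044616-151044915, minus strand), 205 and 158 bases before its start. It is shown because its RNA had the highest correlation with Dbp among core clock genes. Of the genes with a window, 0 of 7 PAR bZIP targets and 0 of 5 other clock-controlled genes held the D-box.
Per3: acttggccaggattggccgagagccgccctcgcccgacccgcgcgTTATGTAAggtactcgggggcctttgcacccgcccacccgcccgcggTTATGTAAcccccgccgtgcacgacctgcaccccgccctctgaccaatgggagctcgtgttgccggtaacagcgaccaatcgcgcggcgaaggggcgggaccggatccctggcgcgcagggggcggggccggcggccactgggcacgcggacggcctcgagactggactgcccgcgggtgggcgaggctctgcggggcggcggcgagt
A match of letters is a description of the sequence and not a bound site.

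The labels of the groups were checked against Asah1, and the tissue against liver markers. The level of Asah1 was 49.4 ± 6.78 CPM (SD, n = 4) in ASAH− Etoh-Dox, 12755 ± 2796 CPM (n = 5) in ASAH+ Etoh-Dox and 46.5 ± 1.70 CPM (n = 4) in ASAH+ Etoh. Its log2 fold change was 8.01 (SE 0.20, adjusted p = 1.24e-11) in ASAH+ Etoh-Dox against ASAH− Etoh-Dox mice, higher in all 5 ASAH+ mice. The group labels therefore match the level of Asah1. The 5 hepatocyte markers summed to 79316 to 129022 CPM, led by Alb with a mean of 90337 CPM. The samples are whole liver, in which fewer cells of a type and less RNA per cell cannot be told apart.

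Per kilobase of merged exons, Bhlhe40, Tef and Dbp were the most abundant of the 9 genes. Their levels over 13 mice were 21.6 ± 6.45 (SD), 20.7 ± 9.06 and 20.4 ± 12.7 CPM per kb. Tsc22d3 had 18.9 ± 8.64, Hlf 10.5 ± 2.15, Nfil3 9.39 ± 6.04 and Usp2 8.84 ± 5.01 CPM per kb. Ciart at 2.89 ± 2.39 and Bhlhe41 at 0.233 ± 0.155 CPM per kb were the least abundant. The bottom of this order was clear, with Usp2 above Ciart and Ciart above Bhlhe41 in all 13 mice. Bhlhe40 was above Tef in 6 of 13 mice, Tef above Dbp in 9, Dbp above Tsc22d3 in 9, Tsc22d3 above Hlf in 11, Hlf above Nfil3 in 9 and Nfil3 above Usp2 in 6. By the longest transcript in place of merged exons Tef (37.1 CPM per kb) came before Dbp (33.3), Bhlhe40 (32.6) and Tsc22d3 (28.6). Ciart rested on 9 to 484 counts per mouse and Bhlhe41 on 4 to 110, so the lowest levels of these genes are the least precise.

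Most members shared little sequence with other genes. Of the 31-base words of their transcripts, at most 0.133% occurred in transcripts of another gene for Dbp, Tef, Hlf, Nfil3, Bhlhe40, Bhlhe41 and Usp2. Ciart shared 487 of 2340 words (20.8%) with Gm9176, and Gm9176 had 0 counts in every mouse. Tsc22d3 shared 59 of 4364 (1.35%). The opposite strand of the Dbp locus holds Sphk2, with a median of 37.2 CPM, and the libraries kept the strand of the RNA.

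The PAR bZIP activators are Dbp, Tef and Hlf. Dbp (ENSMUSG00000059824, chr7:45705088-45710203) had 7.99, 111, 33.3 and 82.2 CPM in ASAH− Etoh-Dox replicates 1 to 4. It had 102, 99.7, 4.95, 19.3 and 57.8 CPM in ASAH+ Etoh-Dox replicates 1 to 5. In ASAH+ Etoh replicates 1 to 4, Dbp had 78.1, 89.2, 82.4 and 26.7 CPM. Low and high mice occurred in each group, and the ranges overlapped. In ASAH+ Etoh, replicate 4 stood far below the other 3. The lowest mouse, ASAH+ Etoh-Dox replicate 3, and the highest, ASAH− Etoh-Dox replicate 2, differed 22.4-fold. For ASAH+ Etoh-Dox against ASAH− Etoh-Dox mice the log2 fold change of Dbp was -0.05 (SE 0.82), with ASAH+ higher in 9 of 20 pairs of mice (exact p = 0.897).

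Tef (ENSMUSG00000022389, chr15:81802421-81826863), a close relative of Dbp, had 66.7, 211, 101 and 224 CPM in the 4 ASAH− Etoh-Dox mice. It had 232, 228, 50.5, 84.4 and 165 CPM in ASAH+ Etoh-Dox mice and 196, 235, 225 and 101 CPM in ASAH+ Etoh mice. The same mouse, ASAH+ Etoh-Dox replicate 3, was lowest for Tef and Dbp, and the groups again overlapped. The whole range of Tef was 4.66-fold. Its log2 fold change in ASAH+ Etoh-Dox against ASAH− Etoh-Dox mice was 0.01 (SE 0.48, exact p = 0.960).

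Hlf (ENSMUSG00000003949, chr11:90336536-90390895), the third activator, had 51.5, 72.0, 54.2 and 82.1 CPM in ASAH− Etoh-Dox mice. It had 65.5, 97.7, 62.4, 58.9 and 72.3 CPM in ASAH+ Etoh-Dox and 74.1, 87.5, 83.5 and 53.7 CPM in ASAH+ Etoh mice. Hlf ranged 1.90-fold, the narrowest range of the 9 genes. Its log2 fold change was 0.14 (SE 0.18, exact p = 0.516) in ASAH+ Etoh-Dox against ASAH− Etoh-Dox mice.

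Nfil3 (ENSMUSG00000056749, chr13:52967209-52981073), the repressor of D-box elements, was high where Dbp was low. It had 30.8, 9.17, 16.0 and 8.51 CPM in ASAH− Etoh-Dox replicates 1 to 4. It had 11.01, 8.07, 25.96, 44.9 and 19.9 CPM in ASAH+ Etoh-Dox replicates 1 to 5 and 13.1, 10.4, 11.2 and 38.2 CPM in ASAH+ Etoh replicates 1 to 4. The 4 highest mice for Nfil3 were ASAH+ Etoh-Dox replicates 4 and 3, ASAH+ Etoh replicate 4 and ASAH− Etoh-Dox replicate 1. These were also the 4 lowest mice for Dbp. The log2 fold change of Nfil3 in ASAH+ Etoh-Dox against ASAH− Etoh-Dox mice was 0.45 (SE 0.58), with ASAH+ higher in 12 of 20 pairs (exact p = 0.548). Per kilobase, the level of Dbp divided by that of Nfil3 ran from 0.129 in ASAH+ Etoh-Dox replicate 3 to 8.37 in replicate 2 of the same group. The sum of Dbp, Tef and Hlf over Nfil3 ran from 1.17 in ASAH+ Etoh-Dox replicate 4 to 19.3 in replicate 2. The balance of activator to repressor RNA thus had high and low mice in each of the 3 groups.

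The repressors of CLOCK and BMAL1 are Ciart, Bhlhe40 and Bhlhe41. Ciart (ENSMUSG00000038550, chr3:95878503-95882251) had 2.01, 6.97, 1.35 and 12.3 CPM in ASAH− Etoh-Dox mice. It had 9.26, 17.4, 0.325, 0.562 and 3.38 CPM in ASAH+ Etoh-Dox replicates 1 to 5 and 5.48, 8.46, 13.4 and 3.99 CPM in ASAH+ Etoh mice. Its 53.6-fold range, within a single group, was the widest of the 9 genes. Both ends lay in ASAH+ Etoh-Dox, in replicates 3 and 2. The log2 fold change in ASAH+ Etoh-Dox against ASAH− Etoh-Dox mice was 0.13 (SE 0.95, exact p = 0.683) for Ciart.

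Bhlhe40 (ENSMUSG00000030103, chr6:108660629-108666925, encoding DEC1) had 67.4, 111, 67.1 and 116 CPM in ASAH− Etoh-Dox mice. It had 153, 103, 48.3, 72.6 and 96.7 CPM in ASAH+ Etoh-Dox mice and 117, 136, 106 and 127 CPM in ASAH+ Etoh mice. All 4 ASAH+ Etoh mice had over 100 CPM, and the mice on Etoh-Dox lay on both sides of them. Between ASAH− Etoh-Dox and ASAH+ Etoh mice the log2 fold change was -0.43 (SE 0.29, exact p = 0.114, adjusted p = 0.707). The first group was higher in 2 of 16 pairs of mice, and this adjusted p was the smallest of the 9 genes over the 3 comparisons.

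Bhlhe41 (ENSMUSG00000030256, chr6:145858243-145865558, encoding DEC2) is on the same chromosome and had the lowest counts. It had 0.228, 2.77, 1.59 and 1.47 CPM in ASAH− Etoh-Dox mice, 2.32, 3.96, 0.145, 0.602 and 1.47 CPM in ASAH+ Etoh-Dox mice and 1.61, 1.42, 1.81 and 0.925 CPM in ASAH+ Etoh mice. The lowest values were those of the same ASAH+ Etoh-Dox replicate 3 and ASAH− Etoh-Dox replicate 1 that were lowest for Dbp. The log2 fold change in ASAH+ Etoh-Dox against ASAH− Etoh-Dox mice was 0.17 (SE 0.71, exact p = 0.968).

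Usp2 (ENSMUSG00000032010, chr9:44067021-44095627) had 11.2, 53.6, 15.5 and 60.7 CPM in ASAH− Etoh-Dox replicates 1 to 4. It had 68.4, 64.0, 7.09, 13.4 and 34.1 CPM in ASAH+ Etoh-Dox replicates 1 to 5 and 49.4, 68.8, 70.0 and 37.4 CPM in ASAH+ Etoh replicates 1 to 4. The 4 lowest mice were all on Etoh-Dox, 2 of each genotype, but the highest Etoh-Dox mice reached the level of the ASAH+ Etoh mice. In the edgeR fit to all 13 mice the log2 fold changes of Usp2 against ASAH+ Etoh were the most negative of the 9 genes. They were -0.59 (SE 0.66, exact p = 0.230, adjusted p = 0.876) for ASAH+ Etoh-Dox and -0.67 (SE 0.70, exact p = 0.229, adjusted p = 0.822) for ASAH− Etoh-Dox, which share the ASAH+ Etoh mice. This order depended on the tool, since limma-voom gave -1.41 for Ciart and -1.01 for Usp2 in ASAH+ Etoh-Dox against ASAH+ Etoh mice. The first value of Usp2 was -0.94 without ASAH+ Etoh-Dox replicate 1, -0.87 without replicate 2, -0.38 without replicate 4 and -0.33 without replicate 3. The second was -1.07 without ASAH− Etoh-Dox replicate 4, -0.43 without replicate 3 and -0.39 without replicate 1.

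Tsc22d3 (ENSMUSG00000031431, chrX:140539528-140600659) had 156, 42.0, 39.7 and 93.3 CPM in ASAH− Etoh-Dox mice. It had 67.3, 74.8, 123, 98.0 and 65.8 CPM in ASAH+ Etoh-Dox mice and 42.1, 59.9, 68.8 and 138 CPM in ASAH+ Etoh mice. The 3 highest were ASAH− Etoh-Dox replicate 1, ASAH+ Etoh replicate 4 and ASAH+ Etoh-Dox replicate 3, which were all low in Dbp. The log2 fold change in ASAH+ Etoh-Dox against ASAH− Etoh-Dox mice was 0.05 (SE 0.44, exact p = 0.595).

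**Figure D1:**
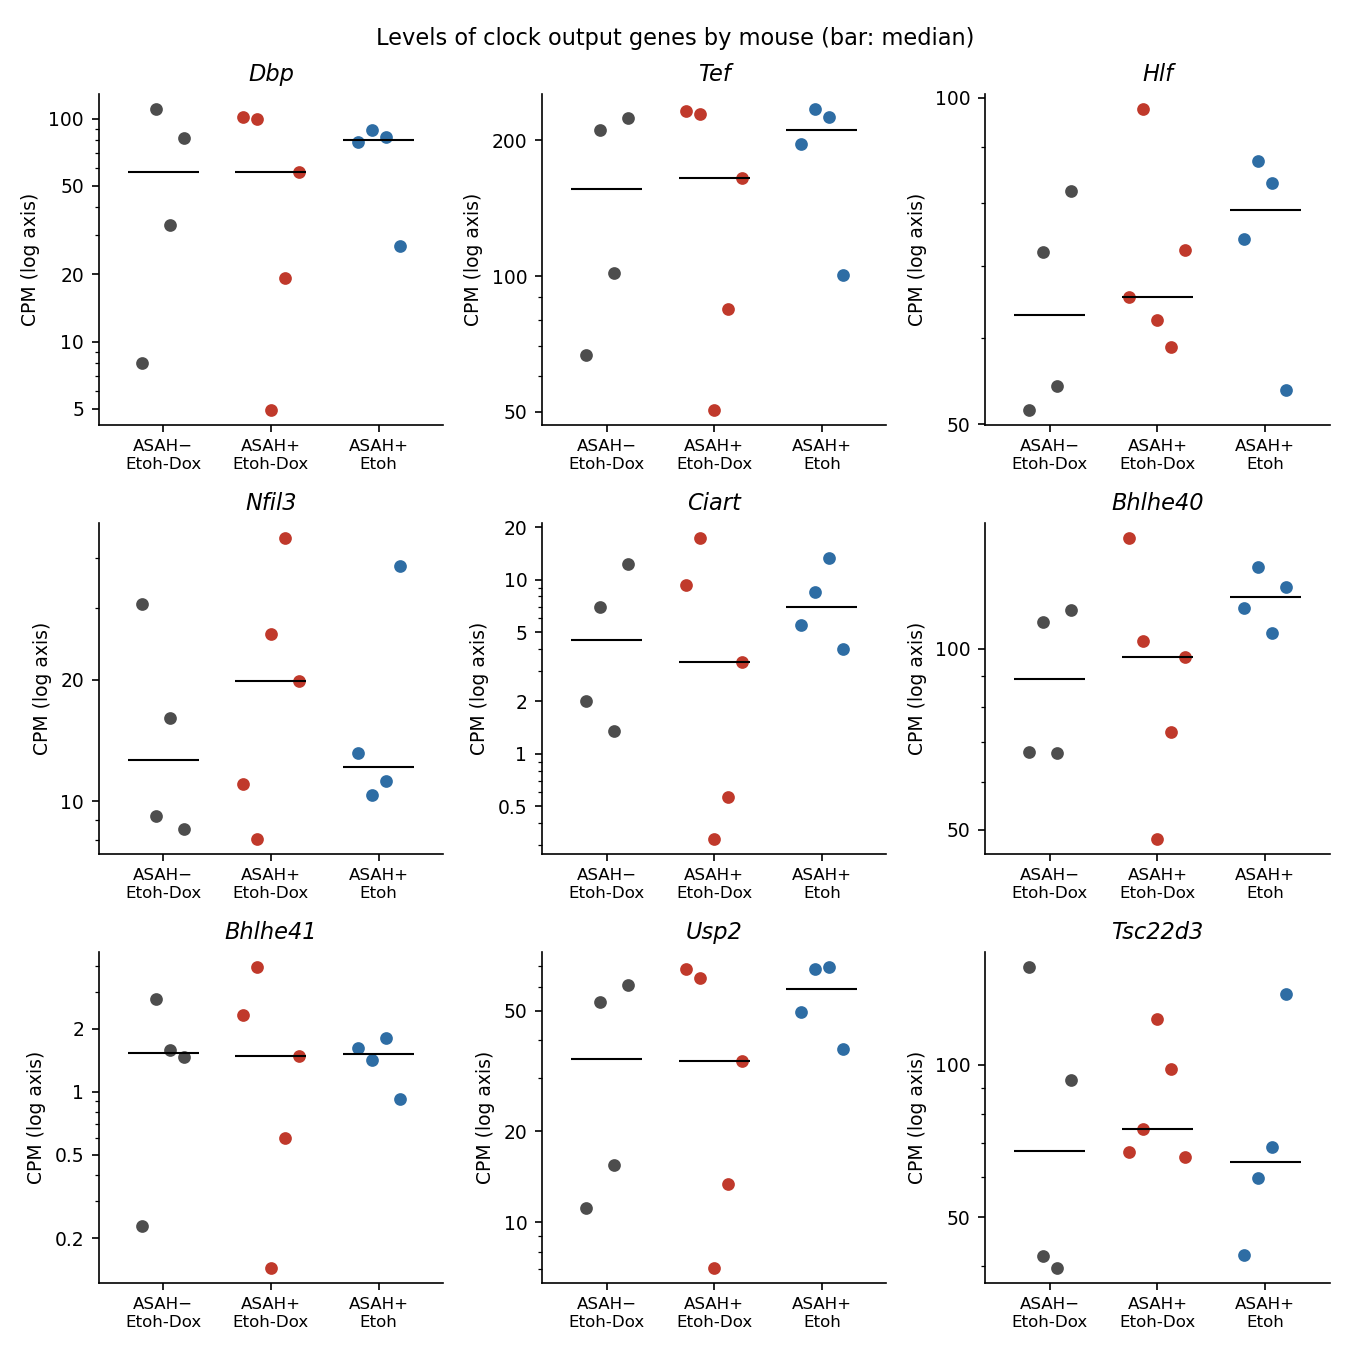
CPM of the 9 clock output genes on log axes, with 1 point per mouse and a bar at the median of each group (ASAH− Etoh-Dox n = 4, ASAH+ Etoh-Dox n = 5, ASAH+ Etoh n = 4). The groups overlap in each panel, and Dbp runs from 4.95 to 111 CPM.

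The comparison of ASAH+ with ASAH− mice on Etoh-Dox addresses the effect of the induced transgene, since both groups received Dox. By edgeR, 0 of 9 members passed an adjusted p of 0.1, against 2 of 14317 genes tested (0.014%), Asah1 and Sod1. DESeq2 called 0 of 9, against 12 of 15808 genes (0.0759%), and limma-voom 0 of 9, against 0.014%. An unadjusted p under 0.05 was found for 0 of 9 members and for 409 genes (2.86%). The groups did not overlap for 0 of 9 members and for 127 genes (0.887%). The members' median log2 fold change was 0.09, against -0.00225 for all genes tested, and each of the 9 members had an adjusted p of 0.9997. These directions were not stable, since limma-voom turned the sign of Tef (-0.04), Ciart (-0.59), Bhlhe41 (-0.10) and Usp2 (-0.03). Leaving out 1 mouse at a time turned the sign of 8 of 9 members in this comparison. The value of Nfil3 kept its sign but ran from 0.01, without ASAH+ Etoh-Dox replicate 4, to 0.98, without ASAH− Etoh-Dox replicate 1.

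ASAH+ mice with and without Dox differ in both the induced transgene and Dox itself. edgeR called 0 of 9 members here, against 2 genes (0.014%), again Asah1 and Sod1. limma-voom called 0 of 9, against 0.014%. DESeq2 gave an adjusted p to only 4 of 9 members (Tef, Hlf, Bhlhe40 and Tsc22d3), since it set aside genes of lower mean counts, and called 0 of these, against 98 of 1982 genes (4.94%). At an unadjusted p under 0.05 there were 0 of 9 members and 1044 genes (7.29%). The groups did not overlap for 0 of 9 members and 369 genes (2.58%). limma-voom turned the sign of Bhlhe41 from 0.24 to -0.39. The median log2 fold change of the members was -0.28, while that of all genes tested was 0.01. Members ran together over mice, as given below, so they are not 9 independent values. No shift of the members is read from this median.

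ASAH− Etoh-Dox and ASAH+ Etoh mice, which lack Asah1 induction, differ in Dox and in the TRE-ASAH1 allele. edgeR called 0 of 9 members, against 2 genes (0.014%), mt-Co2 and mt-Co3, and limma-voom 0 of 9, against 0.014%. DESeq2 called 0 of the 8 members it gave an adjusted p, against 149 of 8625 genes (1.73%). An unadjusted p under 0.05 was found for 0 of 9 members and 1316 genes (9.19%), and groups that did not overlap for 0 of 9 members and 787 genes (5.5%). The members' median log2 fold change was -0.24, against 0.02 for all genes tested, and limma-voom turned the sign of Bhlhe41 from 0.07 to -0.28. Each pair of these comparisons shares a group of mice, so their members' values are not independent. With 5 mice against 4 the exact test can reach a p of 0.00794, and with 4 against 4 a p of 0.0286. The standard errors of the members ran from 0.18 for Hlf to 1.00 for Ciart, so a difference in Ciart would have had to be far larger than one in Hlf to pass.

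**Figure D2:**
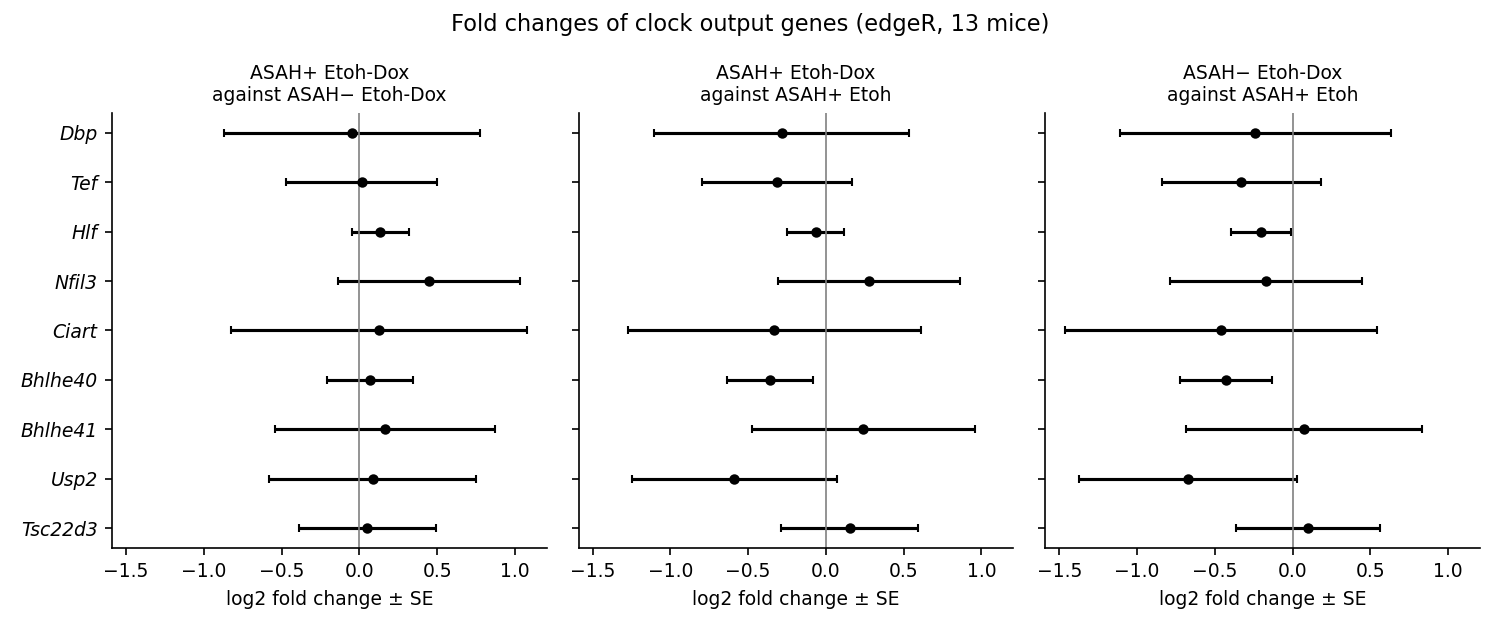
Log2 fold changes (points) with standard errors (bars) of the 9 clock output genes in the 3 comparisons, from the edgeR fit to 13 mice. The most negative values are those of Usp2 against ASAH+ Etoh, -0.59 and -0.67, and 0 of 27 values passed the test.

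Mice of the same group differed widely in these genes. The SD of log2 CPM around the group means was 1.75 for Ciart, 1.56 for Dbp, 1.30 for Bhlhe41 and 1.15 for Usp2. It was 0.91 for Nfil3, 0.83 for Tef, 0.70 for Tsc22d3, 0.46 for Bhlhe40 and 0.31 for Hlf. The median of all 14317 genes was 0.24 and the 90th percentile 0.57, and 7 of 9 members lay above the latter. Ciart held place 93, Dbp 123, Bhlhe41 181 and Usp2 229 among all genes tested, counted from the largest SD. Hlf held place 5287. The largest SD, 4.27, was that of the pseudogene Rpl30-ps10. In the core loop Arntl had an SD of 1.82 and Npas2 one of 1.95, above the 9 members. No test was made of these spreads. Since the hour of collection is not given for any mouse, neither the spreads nor the correlations with Dbp below can be set against it.

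**Figure D3:**
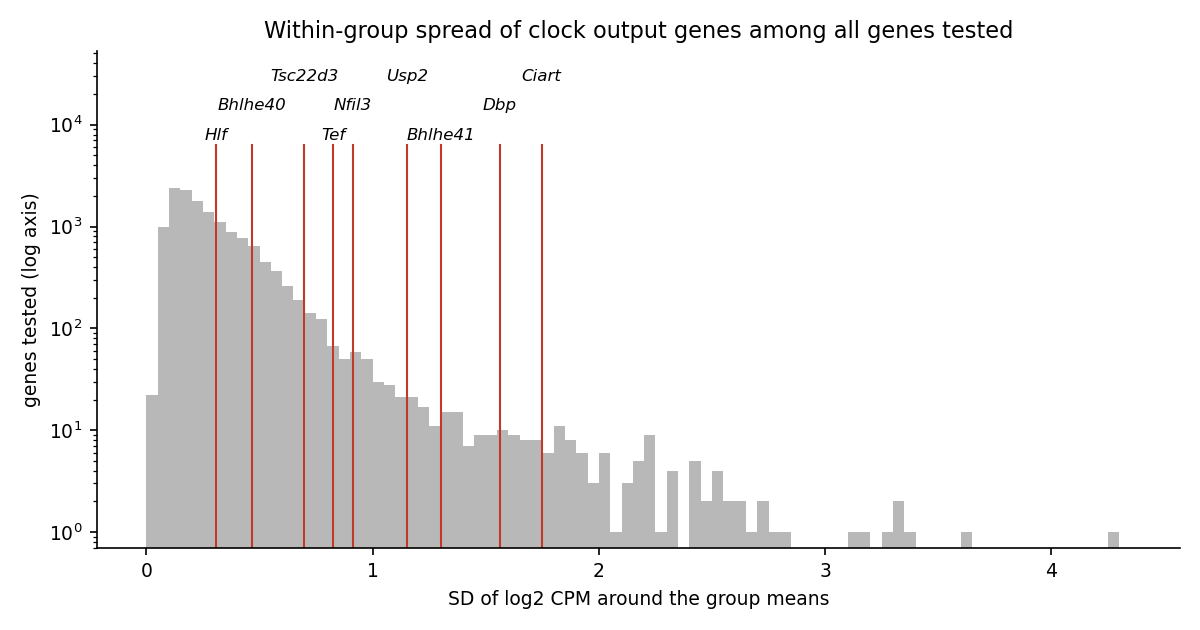
Histogram of the SD of log2 CPM around the group means for 14317 genes (log axis), with lines at the 9 clock output genes. Ciart (1.75) and Dbp (1.56) lie far from the median of 0.24, whereas Hlf (0.31) lies near it.

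Since mice of a group differed, the other genes were compared with Dbp across mice. Pearson's r of log2 CPM was computed over 13 mice and tested by a two-sided permutation test, with p-values adjusted over the 14316 other genes. Dbp ran from 2.33 to 6.79 log2 CPM, and the widest step between neighbouring mice was 1.26, from 3.01 to 4.27. All genes tested had a median r of -0.0154. Of these, 332 (2.32%) passed an adjusted p of 0.1 with a positive r and 292 (2.04%) with a negative r. Among the other 8 members 5 passed with a positive r and 1 with a negative r, and the members' median r was 0.85. The members were chosen as known clock outputs, so a relation among them is no independent finding about the list.

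Tef, which like Dbp binds D-boxes, had the highest r of all genes, 0.98 (p = 1e-05, the smallest these permutations can give, adjusted p = 0.00795). Its Spearman's rho was 0.90 (adjusted p = 0.0245). Without the 2 mice farthest from the median of Dbp, ASAH+ Etoh-Dox replicate 3 and ASAH− Etoh-Dox replicate 1, r was 0.98 (adjusted p = 0.0907). After centring on group means r was also 0.98 (adjusted p = 0.0504 by exact within-group permutations). Hlf had an r of 0.71 (p = 0.0063, adjusted p = 0.119) and a rho of 0.66, and did not pass. The r of Hlf without the 2 mice was 0.77 (adjusted p = 0.165), and without ASAH+ Etoh-Dox replicate 3 alone it was 0.80 and passed (adjusted p = 0.0531). Of the activators, then, Tef followed Dbp within groups, and for Hlf the call turned on 1 mouse.

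Nfil3 had an r of -0.80 with Dbp (permutation p = 0.00138, adjusted p = 0.0578). It was the single negative one among the 6 members that passed. Its rho was -0.85 (adjusted p = 0.0391), and r was -0.83 after centring (adjusted p = 0.0889). Without the 2 mice it was -0.93 (adjusted p = 0.0909). Leaving out 1 mouse at a time gave -0.86 to -0.78, and the last of these, without ASAH− Etoh-Dox replicate 1, did not pass (adjusted p = 0.139). The RNAs of this activator and this repressor of D-box elements thus ran in opposite order over mice, without the 2 extreme mice as well.

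The repressors of CLOCK and BMAL1 had positive values. Bhlhe41 had an r of 0.95 (p = 1e-05, the smallest possible, adjusted p = 0.00795) and a rho of 0.86 (adjusted p = 0.0391). Its r was 0.82 without the 2 mice (adjusted p = 0.0923) and 0.96 after centring (adjusted p = 0.0567). Ciart had an r of 0.86 (p = 0.00037, adjusted p = 0.0315) and a rho of 0.82 (adjusted p = 0.0579). Its r without the 2 mice was nearly the same, 0.87, with an adjusted p of 0.101. Bhlhe40 had an r of 0.84 (p = 0.00071, adjusted p = 0.0415), but a rho of 0.64 (adjusted p = 0.200). Without the 2 mice Bhlhe40 had a lower r, 0.62 (permutation p = 0.0418, adjusted p = 0.321), and did not pass. It also did not pass after centring (r = 0.84, adjusted p = 0.113), nor without ASAH− Etoh-Dox replicate 1 (r = 0.82), ASAH+ Etoh-Dox replicate 3 (0.73) or ASAH+ Etoh-Dox replicate 4 (0.83).

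Usp2 had an r of 0.94 (p = 3e-05, adjusted p = 0.00914) and a rho of 0.85 (adjusted p = 0.0391). After centring its r was 0.95 (adjusted p = 0.0506), and without the 2 mice 0.88 (adjusted p = 0.106). Tsc22d3 had an r of -0.68 (p = 0.0108, adjusted p = 0.153) and a rho of -0.58 (adjusted p = 0.282). Without the 2 mice its r was -0.42 (adjusted p = 0.573), and Tsc22d3 did not pass in these forms. It passed when ASAH− Etoh-Dox replicate 3 was left out (r = -0.79, adjusted p = 0.0690). In all, 5 of 8 members passed by rho, against 4.44% of all genes, and 5 after centring, against 3.05%. Without the 2 mice 3 of 8 passed (Tef, Bhlhe41 and Nfil3), against 1.02%.

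**Figure D4:**
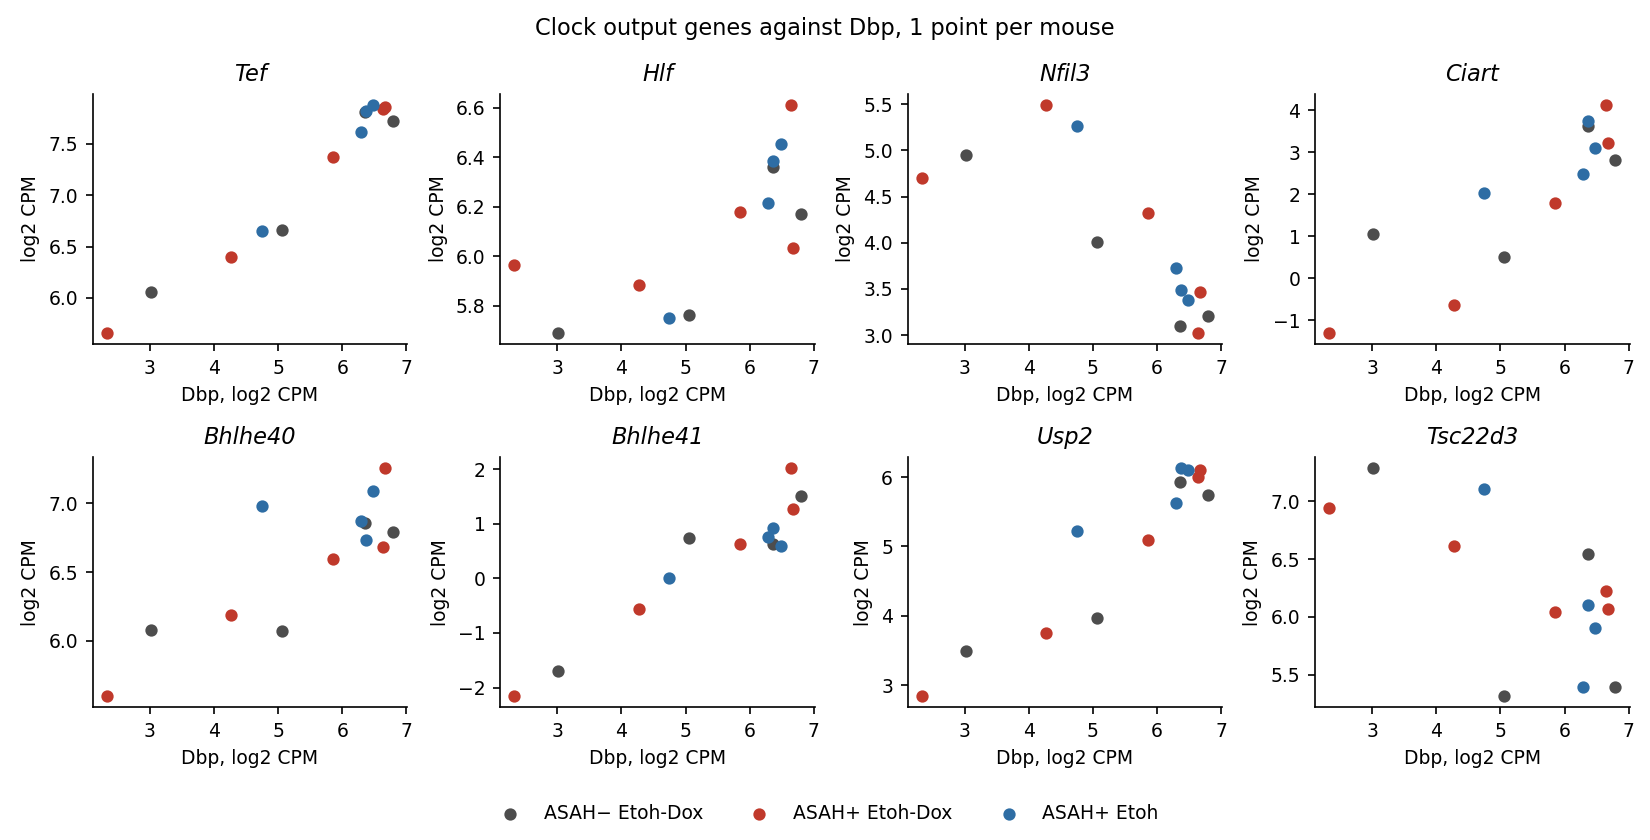
Log2 CPM of 8 clock output genes against log2 CPM of Dbp, with 1 point per mouse coloured by group. Tef lies on a line with Dbp (r = 0.98), Nfil3 has the opposite slope (r = -0.80), and mice of the 3 groups are mixed.

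Among the core clock genes, 9 of 15 passed, 6 with a positive and 3 with a negative r, and their median r was 0.11. The activators Arntl (r = -0.86), Clock (-0.83) and Npas2 (-0.94) were the negative ones. Arntl reached 17.3 CPM, and its adjusted p was 0.00795. The 3 mice with the most Arntl were the 3 with the least Dbp. Per3 (r = 0.96), Nr1d2 (0.95), Per2 (0.91) and Cry2 (0.85) were among the positive ones. Nr1d1 (-0.37), Per1 (0.25) and Cry1 (-0.21) did not pass. By rho 8 of the 15 passed, and after centring 7. Without the 2 mice farthest from the median of Dbp 4 passed, Per2, Per3, Arntl and Npas2. Nr1d2 (r = 0.88, adjusted p = 0.102), Cry2 (0.83, adjusted p = 0.121) and Clock (-0.78, adjusted p = 0.158) then missed the threshold.

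Other clock-controlled liver genes had 6 of 8 past the threshold, 5 positive and 1 negative, and a median r of 0.79. Wee1, a cell cycle kinase with an r of 0.90 (adjusted p = 0.00842), came first. Tspan4 had 0.86, Upp2 0.83, Gys2, the liver glycogen synthase, 0.82 and Nampt, an enzyme of NAD synthesis, 0.77. Insig2, which restrains SREBP processing, had -0.79 (adjusted p = 0.0548). Elovl3 (-0.63) and Noct (0.0610) did not pass. The count was 6 by rho, 3 after centring (Wee1, Tspan4 and Upp2) and 2 without the 2 mice (Wee1 and Tspan4). Insig2 missed the threshold after centring (r = -0.83, adjusted p = 0.113) and without the 2 mice (r = -0.77, adjusted p = 0.163).

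The liver targets of the PAR bZIP factors had 3 of 8 past the threshold, all positive, and a median r of 0.64. Por, the reductase that serves cytochromes P450, had an r of 0.88 with Dbp (adjusted p = 0.0276). Cyp2a5, a coumarin hydroxylase, had 0.85 (adjusted p = 0.0216) and Nr1i3, which encodes the receptor CAR, 0.75 (adjusted p = 0.0893). Ppara had 0.71 (adjusted p = 0.116) and Alas1 0.50, and these did not pass. Nor did Cyp2a4 with 0.57 (adjusted p = 0.292), Cyp7a1 with 0.25 and Cyp2b10 with -0.00726. By rho 3 passed. After centring 2 did, without Nr1i3 (adjusted p = 0.102), and without the 2 mice 2 did, without Cyp2a5 (adjusted p = 0.109). Por alone passed in each of these forms.

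The glucocorticoid-responsive genes, listed because Tsc22d3 is one of them, had 0 of 11 past the threshold for correlation with Dbp. Of all other genes 2.32% passed with a positive r and 2.04% with a negative r, so 0 of 11 is near that share. The median r of the 11 genes was -0.22, and at an unadjusted p under 0.05 there was 1, Zbtb16, with an r of -0.60 (adjusted p = 0.236). Tat, a classic glucocorticoid target, had -0.37. It was highest in the 2 mice with the most Tsc22d3, ASAH− Etoh-Dox replicate 1 (2397 CPM) and ASAH+ Etoh replicate 4 (1804 CPM). In the third, ASAH+ Etoh-Dox replicate 3, Tat was second lowest (590 CPM). Dusp1 was also highest in the first 2 of these mice (14.2 and 18.3 CPM). Fkbp5 differed, with 162, 119 and 74.8 CPM in the 3 mice in that order, the last its lowest value. The 11 genes were not tested against Tsc22d3, so no shared pattern is read from Tat. Between groups, 0 genes of these 4 lists passed the adjusted test in any comparison by edgeR or limma-voom. DESeq2 called 0 of those to which it gave an adjusted p. These were all in ASAH+ against ASAH− mice on Etoh-Dox. In ASAH+ Etoh-Dox against ASAH+ Etoh they were only 3 of 15 core clock, 4 of 8 other clock-controlled, 8 of 8 PAR bZIP target and 7 of 11 glucocorticoid-responsive genes. In ASAH− Etoh-Dox against ASAH+ Etoh they were 13, 7, 8 and 10 in the same order. At an unadjusted p under 0.05 by edgeR there were 4 in all, 2 of these 42 genes in the first comparison and 1 in each of the others, against 2.86%, 7.29% and 9.19% of all genes tested. Mt1 and Mt2 had log2 fold changes of -0.95 (SE 0.42) and -1.19 (SE 0.51) in ASAH+ Etoh-Dox against ASAH− Etoh-Dox mice. Cyp2b10 had -2.02 (SE 0.72) in ASAH+ Etoh-Dox against ASAH+ Etoh, and Rora -0.22 (SE 0.09) in ASAH− Etoh-Dox against ASAH+ Etoh.

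**Figure D5:**
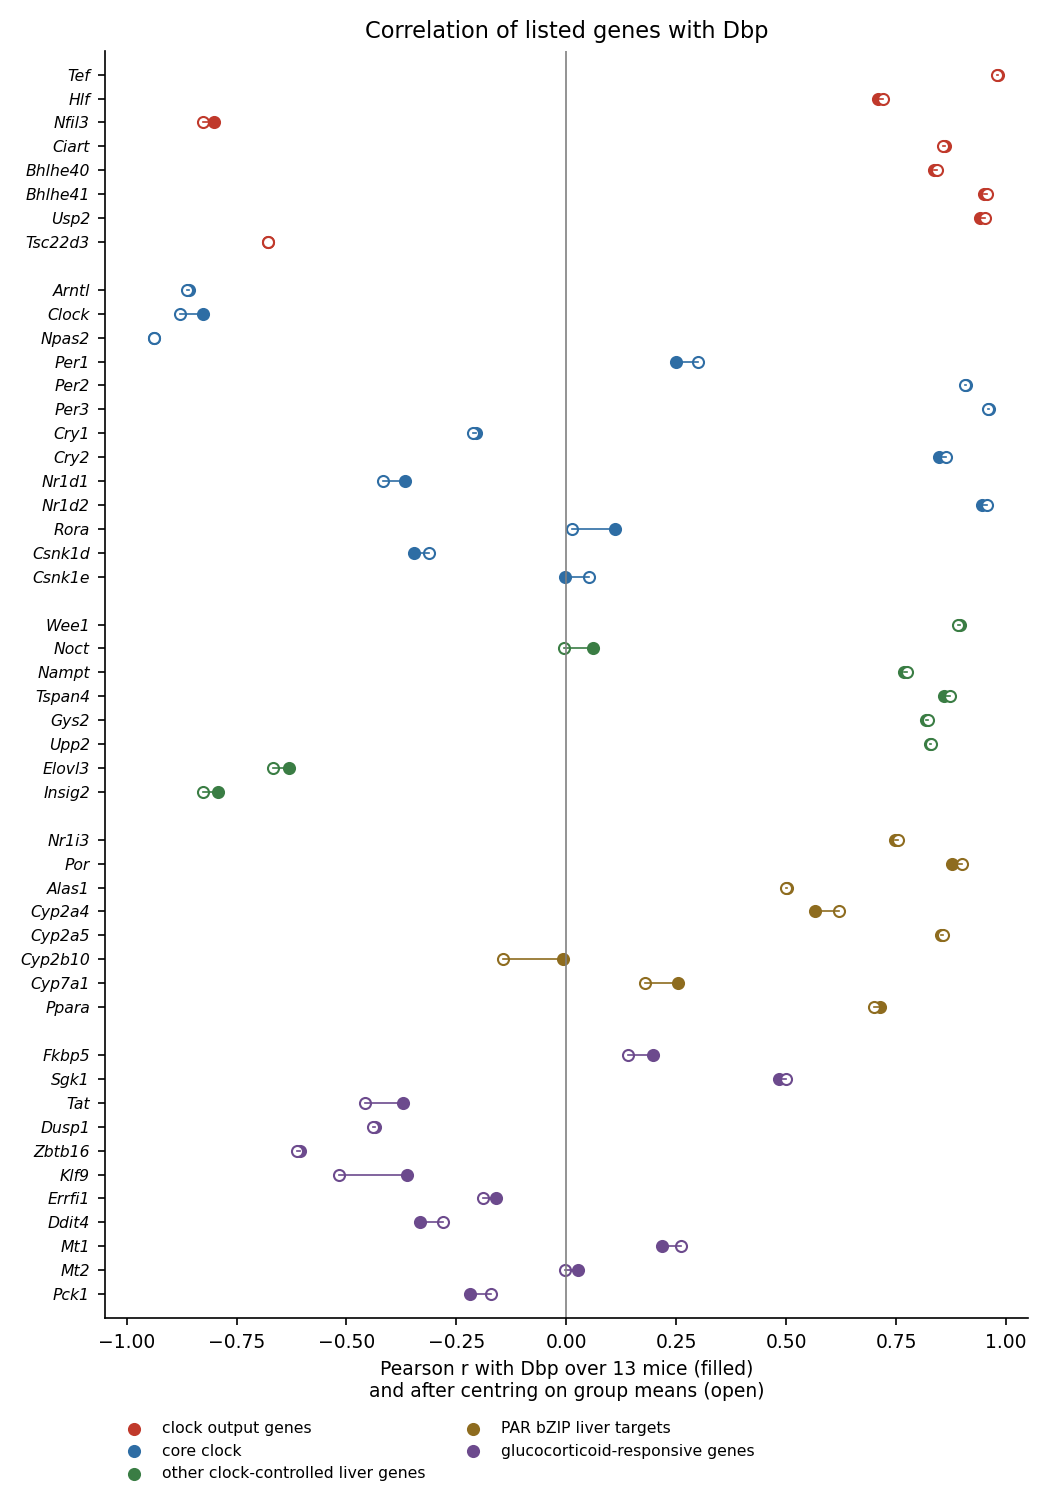
Pearson's r with Dbp over 13 mice (filled points) and after centring on group means (open points) for clock output genes and 4 other lists. Open and filled points lie close for Tef (0.98 and 0.98) and Nfil3 (-0.80 and -0.83), and values of the glucocorticoid-responsive genes lie on both sides of 0.

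Outside the lists, the genes most like Dbp over the 13 mice, with a mean above 1 log2 CPM, were Rev1 (r = 0.96), Bach1 (0.95), Slc5a6 (0.93), Stk35 (0.93) and Rragc (0.93). The most opposite were Eftud2 (-0.94), Arl4a (-0.93), Bloc1s5 (-0.93), Gm49187 (-0.93) and Ndrg1 (-0.92). Their adjusted p-values lay between 0.00795 and 0.00914. Without the 2 mice farthest from the median of Dbp, Eftud2 and Bloc1s5 missed the threshold. Their r was then -0.87 (adjusted p = 0.108) and -0.86 (adjusted p = 0.101), and the other genes named here passed. By r over the 13 mice Tef remained above all of these genes, whereas by rho Stk35 (0.94) was above Tef (0.90).

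Features of the libraries and other cell types were set beside Dbp in 12 relations, with p-values adjusted over these. Total counts (r = 0.20, p = 0.494 by permutation), the mitochondrial share (-0.38, p = 0.197), the share of the 10 genes with most counts (-0.49, p = 0.0913) and the sample number (-0.23, p = 0.446) did not pass. The mitochondrial share was 7.33% to 7.90% of counts in ASAH− Etoh-Dox mice, above all 4 ASAH+ Etoh mice (5.76% to 7.22%), and 6.83% to 7.60% in ASAH+ Etoh-Dox mice. Its part in the comparisons of groups was not tested. Among the summed markers, hepatocyte (-0.47), cholangiocyte (-0.49), leukocyte (0.35), stellate (-0.28), red cell (-0.22), Kupffer cell (0.16) and endothelial (0.13) markers had permutation p-values from 0.0892 to 0.674. The adipocyte markers had an r of 0.76 with Dbp (permutation p = 0.00263, adjusted p = 0.0316) and a rho of 0.63 (permutation p = 0.0258, adjusted p = 0.193). Without the 2 mice farthest from the median of Dbp the r was lower, 0.50 (permutation p = 0.120). By rho, 0 of the 12 relations passed. This sum of 0.594 to 3.58 CPM was nearly all Cidec, since Lep had 0 counts in every mouse, Adipoq at most 1 and Plin1 at most 2, with only 1 of 4 markers tested. Cidec is also expressed by fatty hepatocytes. The part of the Cidec level in the relation of the members was not tested.

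The marker sums also differed between mice, and for 2 of them some groups did not overlap. Red cell markers, led by Hbb-bs, ran from 135 to 1714 CPM, highest in ASAH− Etoh-Dox replicate 3. All 4 ASAH+ Etoh mice (135 to 192 CPM) lay below all 9 mice on Etoh-Dox (215 to 1714 CPM), with group means of 166 ± 24.1 CPM (SD, n = 4) in ASAH+ Etoh, 560 ± 257 CPM (n = 5) in ASAH+ Etoh-Dox and 728 ± 703 CPM (n = 4) in ASAH− Etoh-Dox. Kupffer cell markers, led by Cd5l, ran from 209 to 609 CPM, with ASAH+ Etoh mice (215 to 272 CPM) below ASAH− Etoh-Dox mice (279 to 609 CPM). These group differences of marker sums were not tested. Endothelial markers, led by Clec4g, ran from 104 to 222 CPM. Stellate cell markers, led by Reln, ran from 70.2 to 115 CPM, cholangiocyte markers, led by Spp1, from 31.5 to 79.1 CPM and leukocyte markers, led by Ptprc, from 9.37 to 21.1 CPM.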

How the data were processed

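Liver RNA of 13 mice was sequenced by the authors as single-end, stranded poly(A) libraries. The authors mapped reads with Salmon to GENCODE M19 transcripts on GRCm38.p6, and the deposited table gives the estimated count of each of 53392 genes, rounded and not scaled for library size. Symbols and coordinates came from GENCODE M21 (53355 identifiers matched). The average transcript lengths of tximport were not used here. Replicate pairs differed with a chi-square per degree of freedom of 17.3 to 95.4. Genes with low counts were filtered by group, which left 14317. An edgeR 4.0.16 quasi-likelihood model (TMM, 3 group means, robust, R 4.3.3) was fitted to all 13 mice, with Benjamini-Hochberg adjustment over all genes tested and calls under 0.1. Single genes were tested by exact two-sided permutation of log2 CPM (prior count 2). Correlations with Dbp used 100000 permutations, or all 69120 within-group permutations after centring. Alternatives were DESeq2 1.42.0, limma-voom (limma 3.58.1), DESeq2's size factors, no filter, a prior count of 0.5, the replicate number as a replicate block, an adjusted p under 0.05, Spearman's rho, the longest transcript and each mouse left out in turn. Genes named were from 5 lists (clock output, core clock, other clock-controlled, PAR bZIP targets, glucocorticoid-responsive), Asah1, the 5 genes at each end of the correlation with Dbp and the gene of largest spread. Genes called by edgeR, genes that share words or overlap with members, and list genes at an unadjusted p under 0.05 were named after their values were seen. The single values of 2 core clock genes are not reported here, and counts and medians of that list include them. Markers of 8 cell types were summed. The members and lists were chosen with earlier results of these data known. The tests were tested on simulated data.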

Additional observations from a re-analysis of the deposited data

Results flagged for a closer look

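The 3 groups were searched for a mouse far from the others, on the log2 scale, in 25 genes (the clock output genes, 15 core clock genes and Asah1) and in total counts, which made 78 searches. Such a mouse was found in 3 of the 78. Chance alone gives about 1 in 20, so 3 is no more than chance gives. Dbp was 26.7 CPM in ASAH+ Etoh replicate 4, against 78.1 to 89.2 CPM in the other 3 mice. Per3 was 7.11 CPM in the same mouse, against 33.7 to 38.7 CPM. Per1 was 7.24 CPM in ASAH+ Etoh replicate 1, against 26.8 to 34.9 CPM.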

How the results depend on the processing

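The absence of calls among the 9 clock output genes held in every setting run, and the smallest adjusted p of a member was 0.477, for Bhlhe40 without ASAH− Etoh-Dox replicate 4. Of 135 fold changes under another tool, normalization, filter or block, 123 kept their sign and 12 did not, and of 351 with 1 mouse left out, 308 kept it and 43 did not. The report therefore reads no direction between groups for a member. The cause of the changes of sign was not tested.

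For ASAH+ against ASAH− mice on Etoh-Dox, limma-voom gave log2 fold changes of -0.04 for Tef, -0.59 for Ciart, -0.10 for Bhlhe41 and -0.03 for Usp2. The replicate block gave -0.15 for Tef, -0.01 for Bhlhe41 and -0.04 for Usp2. With 1 mouse left out the values ran from -0.41 to 0.46 for Dbp, -0.23 to 0.27 for Tef, -0.00499 to 0.27 for Hlf and -0.72 to 0.85 for Ciart. They ran from -0.17 to 0.24 for Bhlhe40, -0.40 to 0.62 for Bhlhe41, -0.25 to 0.48 for Usp2 and -0.18 to 0.56 for Tsc22d3. Nfil3 kept its sign, with values from 0.01 to 0.98. For ASAH+ Etoh-Dox against ASAH+ Etoh, Bhlhe41 had -0.39 with limma-voom and -0.03 with the replicate block. With 1 mouse left out the values ran from -0.62 to 0.00101 for Dbp, -0.21 to 0.02 for Hlf, -0.16 to 0.91 for Nfil3, -1.18 to 0.04 for Ciart, -0.33 to 0.53 for Bhlhe41 and -0.05 to 0.58 for Tsc22d3. For ASAH− Etoh-Dox against ASAH+ Etoh, Bhlhe41 had -0.28 with limma-voom and -0.02 with the replicate block, and Nfil3 0.03 with the block. With 1 mouse left out the values ran from -0.75 to 0.11 for Dbp, -0.71 to 0.45 for Nfil3, -0.39 to 0.41 for Bhlhe41 and -0.41 to 0.53 for Tsc22d3.

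Genes called in all, in the order of these comparisons, numbered 12, 98 and 149 with DESeq2, against 2 in each with edgeR. The replicate block gave 1 in the first and 0 in the last comparison, no filter on counts gave 4 in the middle one, and an adjusted p under 0.05 gave 0 in the last. Leaving out 1 mouse gave 1 to 2, 2 to 8 and 0 to 2 genes, with 1 in the first without ASAH− Etoh-Dox replicate 1, 3 or 4 and 8 in the middle one without ASAH+ Etoh replicate 2. In the last, 2 were found without ASAH− Etoh-Dox replicate 4 and 0 or 1 in the other 12 omissions. Mice with the same replicate number were no more alike than others, with a mean correlation of -0.0462 over 12 pairs against 0.0127 over 44, so the replicate block was not used in the report.

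Correlations with Dbp passed less often without the 2 mice farthest from its median, which left 3 members past the threshold and 11 mice. Ciart (0.87), Usp2 (0.88) and Bhlhe40 (0.62) then missed it, Ciart with about the r of all mice. Of the other lists, the core clock genes then fell from 9 to 4 of 15 past the threshold, other clock-controlled genes from 6 to 2 of 8 and PAR bZIP targets from 3 to 2 of 8, and after centring these were 7, 3 and 2. The fall was general. Among all 14316 other genes 624 passed over all mice, 146 without the 2 mice and 437 after centring on the same threshold. Bhlhe40 also missed it by Spearman's rho (0.64) and after centring (0.84). With 1 mouse left out r ran from 0.63 to 0.80 for Hlf, -0.86 to -0.78 for Nfil3, 0.73 to 0.91 for Bhlhe40 and -0.79 to -0.57 for Tsc22d3, and some of these values lay on the other side of the threshold. With 1 mouse left out the within-group SD ran from 1.53 to 1.84 for Ciart, 1.27 to 1.64 for Dbp, 1.04 to 1.37 for Bhlhe41 and 0.27 to 0.32 for Hlf. No error of these spreads is given here. Levels by the longest transcript were 33.3 CPM per kb for Dbp, 37.1 for Tef, 32.6 for Bhlhe40 and 28.6 for Tsc22d3, higher since that length is shorter. Depth limits Ciart and Bhlhe41 most, with as few as 9 and 4 counts in a mouse.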
